A study of Mus musculus with 1 sample.

Results

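Cholesterol is the starting material of every steroid hormone, and the adrenal gland holds cells that consume it in quantity beside cells that do not. Described here are 30 genes of cholesterol synthesis, sterol sensing, ester storage, uptake and transport, chosen by their symbols from the 32285 genes of 1 single-cell RNA sequencing library of the mouse adrenal medulla. Earlier results of these data were known when the genes were chosen, so their counts beside all genes are descriptions. The library came from wild-type mice at postnatal day (P) 15, with the medullae of 10 adrenals from 5 mice of mixed sex pooled and 10000 viable cells used. No allele, reporter or treatment was applied to these mice. Fat and surplus cortex had been trimmed away by hand, so the cortex cells in the library are those left at the medulla, and their shares are not those of the whole gland. The question was in which adrenal cell classes these genes are transcribed, and at what level. The library has no replicate, so values carry exact 95% intervals that cover counting error only, and no difference between samples could be tested.

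Cells make cholesterol from acetyl-CoA through mevalonate, isoprenoid diphosphates, squalene and lanosterol. Sterol regulatory element-binding proteins (SREBPs) switch on the enzymes of this route when sterols in the endoplasmic reticulum run low. SCAP then carries the SREBP precursor to the Golgi, and INSIG proteins hold SCAP back when sterols are plentiful. Steroid-producing cells also take up cholesteryl esters from lipoproteins through the receptor SCARB1, make and store esters with SOAT1, and free cholesterol from them with the lipase encoded by *Lipe*. In the mouse, the cortex next to the medulla forms a transient X zone, for which *Akr1c18* is a known marker, while *Cyp11b1* and *Wnt4* are known from the cortex further out.

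SREBPs bind sterol elements in promoters, so the promoter windows of the members were read first (RefSeq, GRCm38.p6, 250 bases before to 50 after each annotated start). Windows matched 24 of the 30 members, 15 of them synthesis enzymes, and those without a match were *Fdps*, *Fdft1*, *Sqle*, *Npc1*, *Stard4* and *Scarb1*. The motifs were searched on both strands. The sterol element TCACNCCAC was found in 1 member, *Hmgcs1*, which is 4.17% of the members with a window against 1.44% of 27025 genes. A version shorter by its last base, TCACNCCA, was added after that search, contains every match of the longer motif, and was found in 3 members against 4.97% of genes. CCAAT, the element bound by NF-Y, stood in 83.3% of the members and 93.3% of the enzymes against 41.1% of genes. GGGCGG, an SP1 element, stood in 95.8% of the members against 38.2%, and the E-box CACGTG in 29.2% against 8.09%. A gene counted if any of its windows held the motif, and the genes compared were not limited to those expressed here. Counted by window, GGGCGG stood in 81.8% of the members' windows against 35.7% of all windows, CCAAT in 63.6% against 37.4%, and CACGTG in 24.2% against 7.15%. A match is a description of these letters and no evidence of binding. The stretches around the 3 matches to the shorter motif are printed 5′ to 3′ on the strand of the gene, because they belong to an early enzyme, a late enzyme and a regulator whose levels differ between the cell groups below. Capitals mark the match.
*Hmgcs1*, chr13:119690174-119690261, plus strand, match starting 137 bases before the start: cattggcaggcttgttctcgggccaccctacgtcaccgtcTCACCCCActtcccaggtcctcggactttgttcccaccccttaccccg
*Msmo1*, chr8:64733708-64733795, minus strand, match starting 177 bases before the start: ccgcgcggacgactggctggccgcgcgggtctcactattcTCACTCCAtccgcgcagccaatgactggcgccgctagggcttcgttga
*Srebf2*, chr15:82147067-82147154, plus strand, match starting 162 bases before the start: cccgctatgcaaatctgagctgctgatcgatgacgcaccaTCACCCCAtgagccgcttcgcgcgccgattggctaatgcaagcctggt
Each stretch also held 1 CCAAT on either strand. The starts are those of RefSeq. GENCODE places *Msmo1* at chr8:64718139-64733792, so that its match lies inside the gene by that annotation.

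Each unique molecular identifier (UMI) counts 1 transcript captured at its 3′ end, and a level is the UMIs of a gene summed over the cells of a group per 1000000 UMIs of that group (CPM). The library held 51421500 UMIs in 11214 barcodes, and 10139 passed the filters, with a median of 3567 UMIs. Clustering gave 13 cell groups with 9362 cells. The members and the related lists of sterol and lipid genes were kept out of its variable features, but steroidogenic genes were not. Cortex-like cells (3411) formed 3 clusters, called here by genes that lead them the *Akr1c18*-high (1681 cells), the *Cyp11b1*-high (910) and the *Wnt4*-high cluster (820), with 300 cycling cortex-like cells apart. *Akr1c18* stood at 8202 CPM, 405 and 59.1 in these clusters, *Cyp11b1* at 30.3, 4676 and 2366, and *Wnt4* at 0.579, 68.9 and 454. Chromaffin-like cells comprised 1669 adrenaline and 389 noradrenaline cells, and *Th*, which encodes the enzyme that starts catecholamine synthesis, stood at 2126 CPM in them and 8.29 in cortex-like cells. Smaller or other groups were transitioning-like (419), cycling chromaffin-like (132), endothelial-like (1753), cycling endothelial-like (397), immune-like (626) and fibroblast-like cells (88). A cluster of 178 cells held sustentacular markers such as *Sox10* (381 CPM) but had a median of only 1146 UMIs and none of those markers among its 10 leading genes, so it is called the *Scn7a*-high cluster. The remaining 777 cells lay in mixed or unnamed clusters and were left out. They held 74.9% of the 669 doublets that Scrublet called.

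Of the 30 members, 28 had UMIs in every one of the 13 groups. *Lss* (lanosterol synthase) was at 0 in the *Scn7a*-high and fibroblast-like cells, and *Tm7sf2* (a sterol reductase) in the *Scn7a*-high and cycling chromaffin-like cells. In the *Scn7a*-high cluster 3 counts already make 13.1 CPM, so a count of 0 there does not show that a gene is absent. The highest level fell in a cortex group for 24 members and in the *Akr1c18*-high cluster for 22, among them 17 of the 18 synthesis enzymes. How often other genes peak in these groups is not given here, so these counts only describe the members. The exceptions outside the cortex were *Pmvk*, *Srebf1*, *Srebf2* and *Npc1*, highest in the *Scn7a*-high cluster, *Insig2*, highest in adrenaline chromaffin-like cells, and *Npc2*, highest in immune-like cells. For 10 of the 30 members the interval of the ratio between the highest and the next group included 1, so that the top place was not separated at this depth. These were *Mvk*, *Pmvk*, *Ebp*, *Acat2*, *Srebf2*, *Insig1*, *Insig2*, *Scap*, *Npc1* and *Scarb1*.

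**Figure D1:**
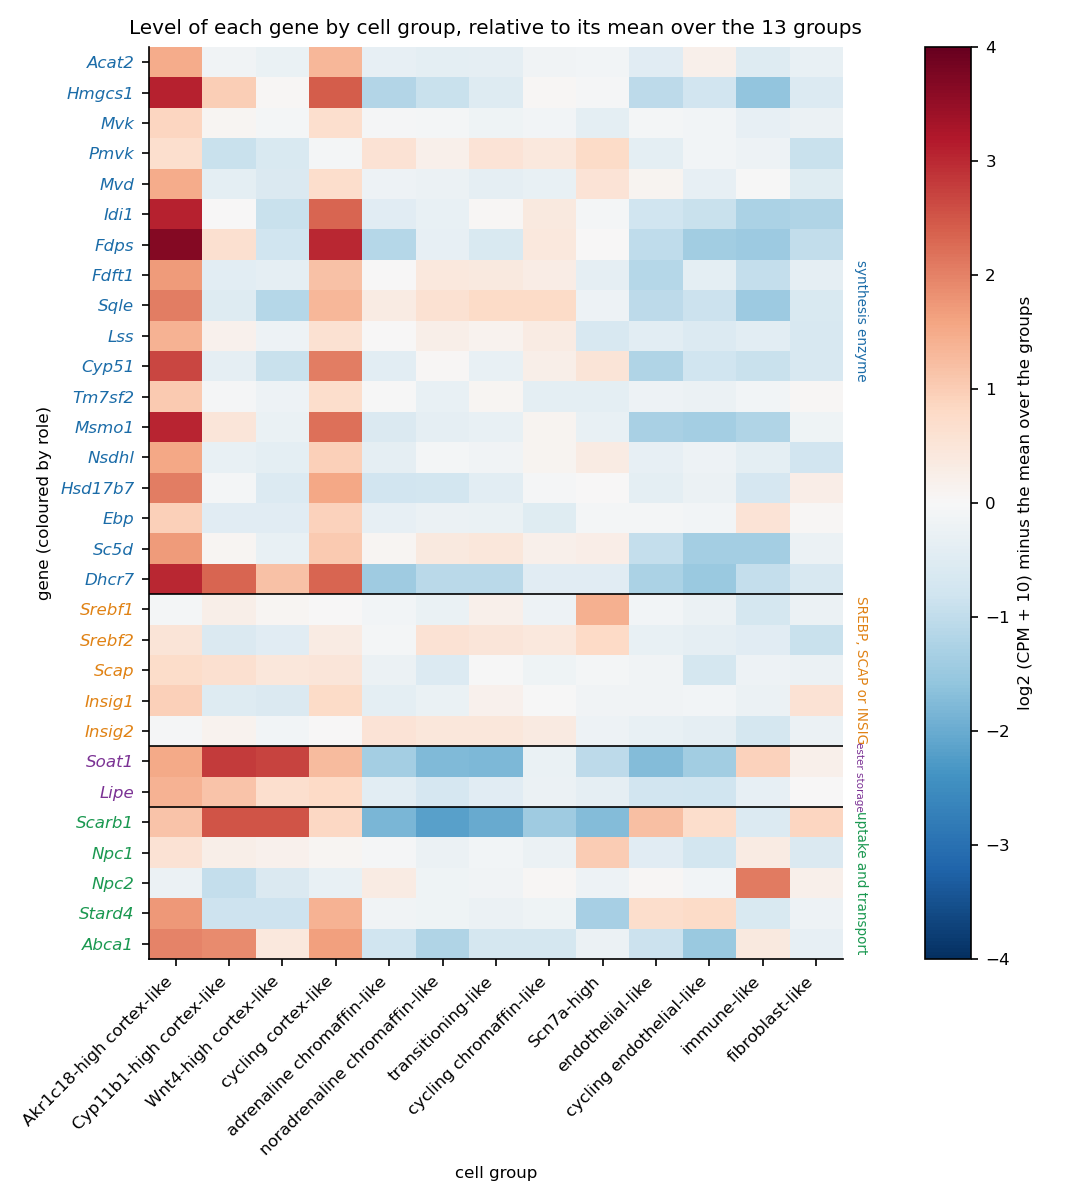
Level of each of the 30 genes (rows, by role) in the 13 cell groups (columns), as log2 (CPM + 10) minus the gene's mean over the groups. Red is above and blue below that mean. The synthesis enzymes are deepest red in the Akr1c18-high and cycling cortex-like groups, Soat1 and Scarb1 in the Cyp11b1-high and Wnt4-high clusters, and Npc2 in immune-like cells.

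Across the enzymes, the level in cortex-like cells stood above that in chromaffin-like cells for all but 1. The widest ratios were those of *Dhcr7*, *Fdps*, *Hmgcs1* and *Hsd17b7*. *Dhcr7* (chr7:143823145-143848410, GRCm38), the reductase that yields cholesterol from its direct precursor, was at 239.8 CPM (233 to 246) in cortex-like and 6.81 CPM (5.19 to 8.79) in chromaffin-like cells, a ratio of 35.2 (95% interval 27.3 to 46.3). *Fdps* (chr3:89093588-89101959), farnesyl diphosphate synthase, was at 545 CPM (535 to 555) and 32.0 CPM (28.3 to 36.0), a ratio of 17.0 (15.1 to 19.3). *Hmgcs1* (chr13:119690379-119708260), the cytosolic HMG-CoA synthase with the sterol element printed above, was at 412 CPM (404 to 421) and 30.4 CPM (26.8 to 34.3), a ratio of 13.6. *Hsd17b7*, a reductase of sterol ketones, had a ratio of 12.8 (8.94 to 18.9), *Msmo1*, the methylsterol oxidase, 8.10 (7.26 to 9.06), *Idi1*, the isopentenyl diphosphate isomerase, 7.97 (6.95 to 9.18), and *Cyp51*, the lanosterol demethylase, 5.58 (4.85 to 6.44). The intervals of all these ratios lie above 2. *Pmvk*, phosphomevalonate kinase, was the exception, at 45.4 CPM (42.6 to 48.3) in cortex-like and 64.1 CPM (58.9 to 69.6) in chromaffin-like cells.

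A gene was counted as higher or lower where the fold was at least 2 after 10 CPM had been added to both levels, among genes at 10 CPM or more in either group. In cortex-like against chromaffin-like cells, 14 of the 29 members tested were higher by this rule, against 13.3% of all genes tested, and 0 were lower, against 15.6%. *Tm7sf2* did not reach 10 CPM in either group. The members higher were 9 enzymes (*Acat2*, *Hmgcs1*, *Idi1*, *Fdps*, *Cyp51*, *Msmo1*, *Nsdhl*, *Hsd17b7* and *Dhcr7*), *Soat1* and *Lipe*, and *Scarb1*, *Stard4* and *Abca1*. The median log2 fold was 0.95 over the 30 members and -0.0049 over all genes tested. The other 8 enzymes tested stayed under the fold. *Fdft1* (squalene synthase), *Sqle* (squalene epoxidase) and *Sc5d* (a sterol desaturase) had ratios of 2.13 (1.87 to 2.42), 2.02 (1.77 to 2.31) and 2.13 (1.88 to 2.41). *Ebp*, the sterol isomerase, and *Mvk*, mevalonate kinase, had 1.78 (1.58 to 2.01) and 1.81 (1.47 to 2.23). *Mvd*, mevalonate diphosphate decarboxylase, and *Lss* had larger ratios of 3.50 (2.64 to 4.71) and 2.81 (2.11 to 3.82) but levels near the 10 CPM that were added.

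**Figure D2:**
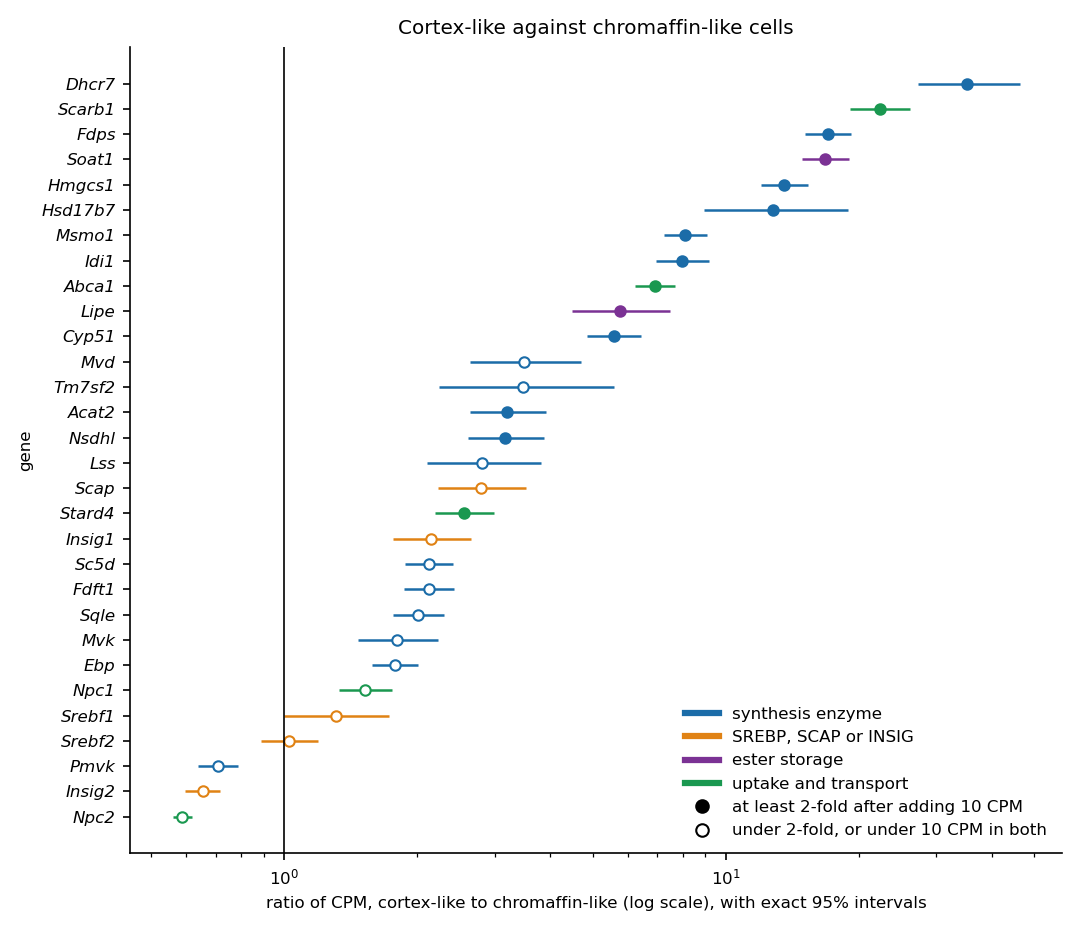
Ratio of the CPM in cortex-like to that in chromaffin-like cells for each member (x, log scale), with exact 95% intervals, coloured by role. Filled points pass the fold rule. Dhcr7, Scarb1, Fdps and Soat1 lie furthest to the right, and Pmvk, Insig2 and Npc2 lie to the left of 1.

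RNA released from cortex cells can enter any droplet. As a gauge, 7 genes that define the cortex stood in chromaffin-like cells at 0.455% of their cortex-like level, in endothelial-like cells at 1.28% and in immune-like cells at 1.43%. At that share, cortex RNA would give 2.48 CPM of *Fdps*, 2.41 of *Soat1* and 1.09 of *Dhcr7* in chromaffin-like cells, each below the measured 32.0, 31.5 and 6.81. The gauge genes stood at only 72.7% of their cortex-like level in the *Akr1c18*-high cluster, where most enzymes were highest. *Akr1c18* itself was at 27.5 CPM in chromaffin-like and 4039 CPM in cortex-like cells. RNA released from that cluster was not gauged apart. In fibroblast-like and cycling chromaffin-like cells the gauge stood at 7.54% and 7.65%, and the part of cortex RNA in the levels there was not tested.

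Against endothelial-like cells, 16 of 29 members were higher in cortex-like cells (background 13.1%) and 0 lower (background 15.3%). *Msmo1* had a ratio of 16.3 (13.1 to 20.6) and *Fdps* 17.3 (14.6 to 20.8). *Sqle*, *Fdft1* and *Sc5d*, which missed the fold rule against chromaffin-like cells, had 11.7 (7.68 to 18.7), 8.45 (6.02 to 12.2) and 6.62 (4.95 to 9.05). Against immune-like cells 18 members were higher (background 16.5%) and 1, *Npc2*, was lower (background 15.3%), with a median log2 fold of 1.33 over the members and 0.14 over all genes. *Sqle* had 2 UMIs in immune-like cells, a level of 1.53 CPM (0.185 to 5.53), against 62.1 CPM in cortex-like cells. Of the 17 enzymes tested, 13 were higher in cortex-like cells in each of these comparisons (backgrounds 13.1% and 16.5%). Among those that stayed under the fold in both was *Ebp*. It had 80.4 CPM (65.7 to 97.3) in immune-like, 48.4 CPM in endothelial-like and 69.9 CPM (66.4 to 73.5) in cortex-like cells. These comparisons share the cortex-like cells.

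The cortex-like cells were not uniform. All 18 enzymes stood highest in the *Akr1c18*-high of the 3 clusters, while *Soat1* and *Scarb1* stood lowest there. Clusters are built from the same cells, so these differences are descriptions with no test. How often other genes stand highest or lowest in that cluster is not given here, so this order only describes the members. *Fdps* was at 1054 CPM (1034 to 1073) in the *Akr1c18*-high, 121 CPM (113 to 131) in the *Cyp11b1*-high and 37.7 CPM (32.8 to 43.2) in the *Wnt4*-high cluster. *Hmgcs1* was at 729 CPM, 161 and 80.9, in the same order of clusters. For *Msmo1* the levels were 585, 89.8 and 50.2 CPM. In the *Wnt4*-high cluster only 6 of the 18 enzymes lay above their chromaffin-like level. The median log2 fold was -0.134 over the enzymes and 0.067 over all genes tested. *Sqle*, at 4.54 CPM (2.94 to 6.69) in the *Wnt4*-high cluster, reached 30.8 CPM (27.2 to 34.8) in chromaffin-like and 121 CPM (114 to 128) in *Akr1c18*-high cells. *Idi1*, at 15.8 CPM (12.6 to 19.5) there, reached 25.1 and 388 CPM.

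The pooled count against chromaffin-like cells therefore covers unlike clusters. In the *Akr1c18*-high cluster 23 of 29 members tested were higher than in chromaffin-like cells (background 13.5%) and 0 lower (background 19.2%), with 16 of the 18 enzymes higher. In the *Cyp11b1*-high cluster 8 of 27 were higher (background 12.2%), *Hmgcs1*, *Fdps*, *Msmo1*, *Dhcr7*, *Soat1*, *Lipe*, *Abca1* and *Scarb1*, and 2 lower (background 16.4%), *Pmvk* and *Npc2*. In the *Wnt4*-high cluster 6 of 26 were higher (background 13.5%), *Hmgcs1*, *Dhcr7*, *Soat1*, *Lipe*, *Abca1* and *Scarb1*, and 2 lower (background 13.0%), *Pmvk* and *Sqle*. These comparisons share the chromaffin-like cells.

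**Figure D3:**
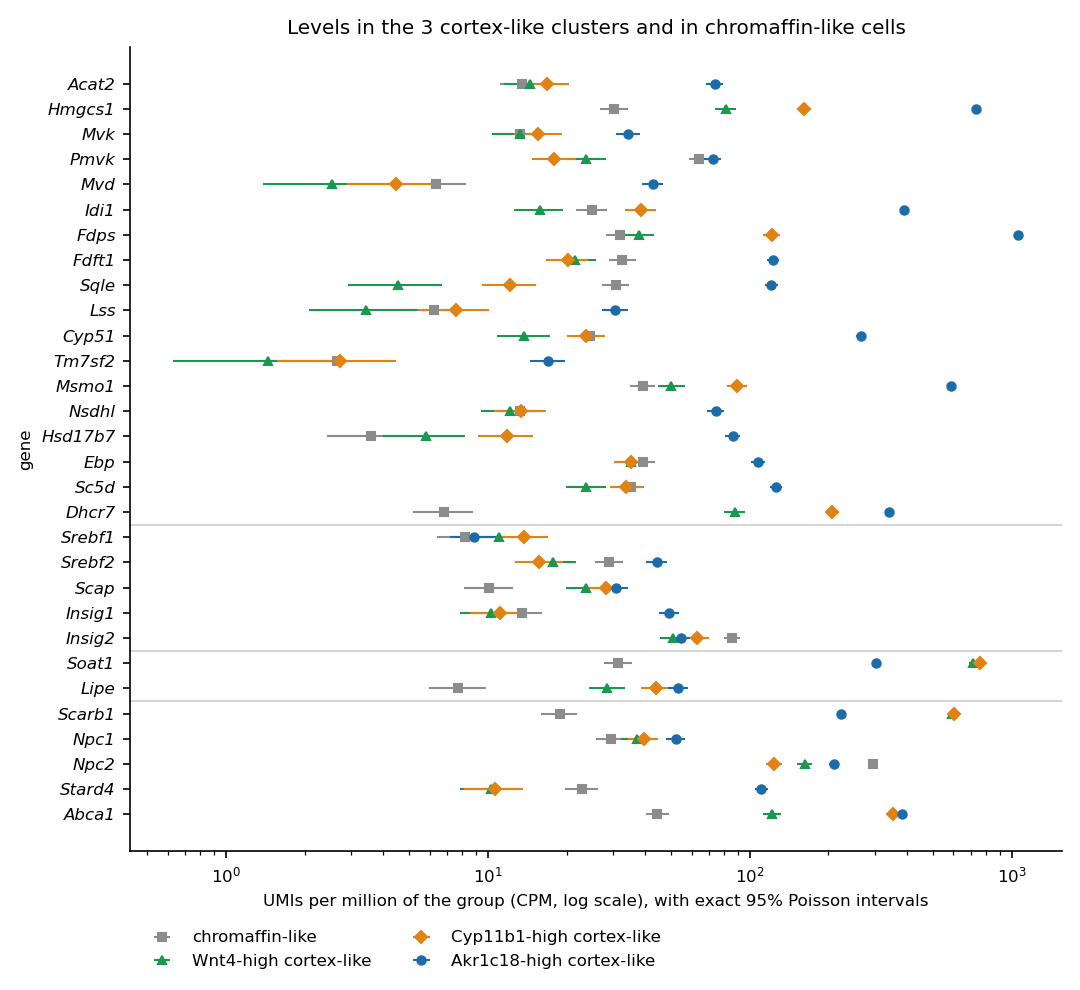
Level of each member in the 3 cortex-like clusters and in chromaffin-like cells (x, CPM on a log scale), with exact 95% Poisson intervals. The Akr1c18-high points lie to the right of the other 3 groups for every enzyme from Acat2 to Dhcr7, and to the left of the other cortex-like clusters for Soat1 and Scarb1.

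By the fold rule, 20 of the 30 members were higher in the *Akr1c18*-high cluster than in the other cortex-like cells, against 3.74% of all genes tested, and 2 were lower, against 7.78%. Among the 18 enzymes 17 were higher, with *Mvk* at a ratio of 2.38 (1.98 to 2.89) under the fold after the added 10 CPM. The largest ratios were those of *Sqle* at 14.3 (11.6 to 17.8), *Idi1* at 14.2 (12.6 to 16.0), *Cyp51* at 14.0 (12.2 to 16.2) and *Fdps* at 13.1 (12.2 to 14.0). Ranked by fold among the 8282 genes tested, *Fdps* was number 10, *Idi1* 12, *Cyp51* 14, *Msmo1* 17 and *Sqle* 19. *Dhcr7* had the smallest ratio of the enzymes, at 2.28 (2.15 to 2.41), with 339 CPM (328 to 351), 207 CPM (195 to 219) and 87.8 CPM (80.2 to 96.0) in the 3 clusters. The median log2 fold over the enzymes was 1.92, against -0.08 over all genes.

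Against the other cortex-like cells, 18 members were lower in the *Wnt4*-high cluster (background 4.02%) and 0 higher (background 8.32%). In the *Cyp11b1*-high cluster 16 were lower (background 2.63%) and 0 higher (background 0.874%). The 3 comparisons share their cells and are not independent. Between the latter clusters the enzymes also differed, with *Fdps*, *Hmgcs1* and *Dhcr7* higher in the *Cyp11b1*-high than in the *Wnt4*-high cluster and their intervals apart. The clusters also differed in measures of cell quality and of other cell types, whose part in these counts was not tested. The median mitochondrial share was 6.38% in the *Akr1c18*-high, 10.7% in the *Cyp11b1*-high and 7.08% in the *Wnt4*-high cluster. The 7 endothelial markers summed to 16.8, 31.0 and 915 CPM, against 7737 in endothelial-like cells, and 40.1% of *Wnt4*-high cells held a UMI of at least 1 of them. In the same order, chromaffin markers summed to 98.1, 182 and 473 CPM and cycling markers to 77.5, 72.3 and 640.4 CPM. Scrublet called 0.178%, 3.74% and 5.12% of the cells. Without all cortex-like cells that held an endothelial-marker UMI, an alternative added after the data had been seen, 19 members were higher in the *Akr1c18*-high cluster and 17 lower in the *Wnt4*-high cluster. Without cells above 10% mitochondrial UMIs, added likewise, these counts were 19 and 19, and without the cells that Scrublet called they were 20 and 18. Without cells holding a UMI of a cycling marker, also added then, they were 19 and 17.

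Summed over the 18 enzymes, the level was 4269 CPM (4229 to 4309) in the *Akr1c18*-high, 833 CPM (809.9 to 857) in the *Cyp11b1*-high and 448 CPM (431 to 466) in the *Wnt4*-high cluster. Chromaffin-like cells held 419 CPM (405 to 433), endothelial-like cells 279 CPM (263 to 296) and immune-like cells 279 CPM (251 to 309.6). Pooled cortex-like cells, at 2375 CPM (2355 to 2396), had a ratio of 5.67 (5.48 to 5.87) to chromaffin-like cells. The *Wnt4*-high cluster was close to chromaffin-like cells, and endothelial-like and immune-like cells were close to each other and lowest of the 13 groups. Under a stricter cell filter, of at least 1000 genes a cell and up to 10% mitochondrial UMIs, immune-like cells stood at 846.6 CPM instead. Per cell, the enzymes' share of UMIs had a median of 3507 CPM in the *Akr1c18*-high cluster, with a 10th percentile of 894 and a 90th of 8149.7. In the *Cyp11b1*-high cluster the median was 609.9 and the 90th percentile 1419, and in the *Wnt4*-high cluster they were 375 and 861. Only 15 of 910 *Cyp11b1*-high and 0 of 820 *Wnt4*-high cells reached the median of the *Akr1c18*-high cluster, while 64 of 300 cycling cortex-like cells did.

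**Figure D4:**
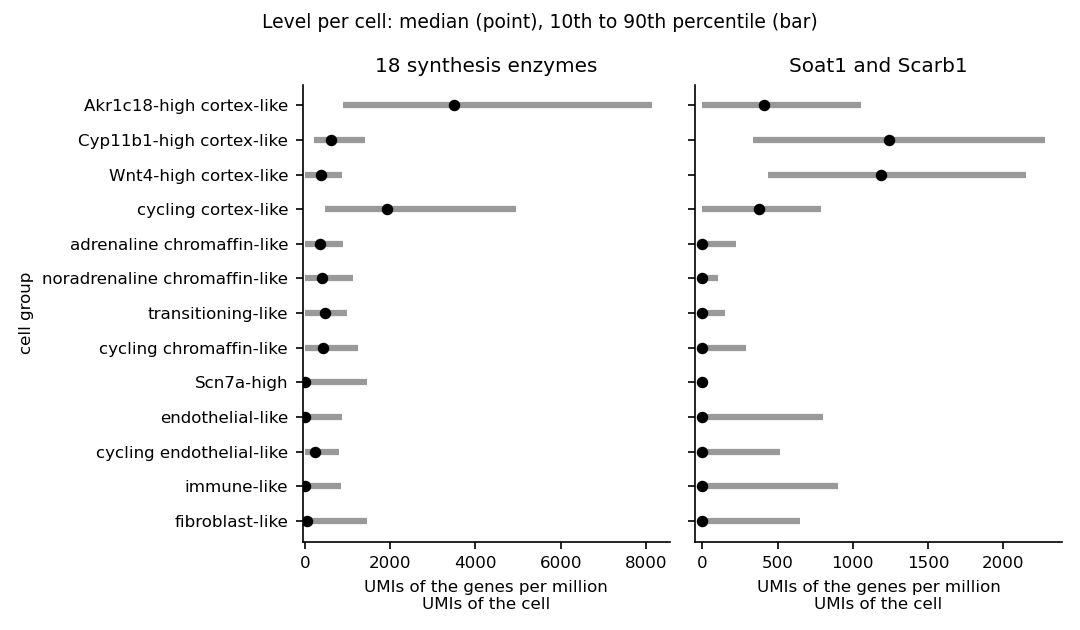
UMIs of the 18 synthesis enzymes (left) and of Soat1 and Scarb1 together (right) as CPM of each cell (x), by cell group (y). Points are medians over cells and bars run from the 10th to the 90th percentile. The enzymes are highest in Akr1c18-high cells, followed by cycling cortex-like cells, and the pair Soat1 and Scarb1 in Cyp11b1-high and Wnt4-high cells. The pair was chosen after its values had been seen.

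Shares of cells with a UMI depend on depth, and the median was 4813 UMIs a cell in the *Akr1c18*-high, 5449 in the *Cyp11b1*-high and 5484 in the *Wnt4*-high cluster and 3004 in chromaffin-like cells. Cells were thinned to 1000 UMIs for this, which left out 272 endothelial-like, 74 immune-like, 35 chromaffin-like and 3 cortex-like cells. *Fdps* was then found in 53.0% (50.6 to 55.4) of *Akr1c18*-high, 8.14% (6.45 to 10.1) of *Cyp11b1*-high and 2.57% (1.60 to 3.90) of *Wnt4*-high cells, and in 3.86% (3.06 to 4.79) of chromaffin-like cells. Unthinned, these shares were 84.8%, 33.5%, 17.6% and 12.4%. *Soat1* was least frequent in the *Akr1c18*-high cluster, with 25.4% (23.3 to 27.6), 48.4% (45.1 to 51.7) and 50.6% (47.1 to 54.1) of the cells of these clusters and 3.21% (2.49 to 4.08) of chromaffin-like cells (unthinned 72.2%, 89.7% and 91.5% in the clusters). Of the 30 members, 28 were found in a larger share of cortex-like than of chromaffin-like cells without thinning. Cortex-like cells were also the deeper, at a median of 5148 UMIs a cell. The share of all genes with this direction is not given here, so the count is not a result about the members.

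None of the 5 regulators passed the fold rule between pooled cortex-like and chromaffin-like, endothelial-like or immune-like cells. In the *Akr1c18*-high cluster alone, 2 of 4 regulators tested were higher than in chromaffin-like cells (background 13.5%) and 0 lower (background 19.2%). Those higher were *Insig1* and *Scap*. *Srebf2*, which encodes the SREBP of the cholesterol enzymes and whose promoter holds the shorter motif, was at 29.8 CPM (27.6 to 32.2) in cortex-like and 29.1 CPM (25.6 to 32.9) in chromaffin-like cells, a ratio of 1.03 (0.885 to 1.19). Within the cortex it stood at 44.2 CPM (40.2 to 48.4) in the *Akr1c18*-high cluster against 15.8 and 17.8 CPM in the *Cyp11b1*-high and *Wnt4*-high clusters, a ratio of 2.64 (2.22 to 3.14) to the other cortex-like cells. *Insig1*, itself a target of SREBPs, followed the enzymes at 49.2, 11.1 and 10.3 CPM, a ratio of 4.58 (3.75 to 5.62). Against the other cortex-like cells, 2 of the 5 regulators, *Srebf2* and *Insig1*, were higher by the fold rule (background 3.74%) and 0 lower (background 7.78%). *Insig2* did not share that pattern, at 54.6 CPM (50.2 to 59.3), 63.0 CPM (56.8 to 69.8) and 51.2 CPM (45.4 to 57.5), and was higher in chromaffin-like cells, at 85.6 CPM (79.5 to 91.9). *Scap* was at 28.4 CPM (26.2 to 30.7) in cortex-like and 10.2 CPM (8.15 to 12.5) in chromaffin-like cells and within 23.8 to 30.9 CPM in the cortex clusters. *Srebf1*, whose product acts mainly on fatty acid genes, was low in all groups but the *Scn7a*-high cluster, with 10.7 CPM (9.40 to 12.2) in cortex-like, 8.20 CPM (6.40 to 10.3) in chromaffin-like and 43.8 CPM in *Scn7a*-high cells, the last from 10 UMIs.

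Storage genes were higher in the cortex. *Soat1* (chr1:156424525-156474331), the acyltransferase that makes cholesteryl esters, was at 529 CPM (519 to 539) in cortex-like and 31.5 CPM (27.9 to 35.5) in chromaffin-like cells, a ratio of 16.8 (14.9 to 19.0). Within the cortex it was lowest where the enzymes were highest, with 304 CPM (294 to 315) in the *Akr1c18*-high, 757 CPM (735 to 779) in the *Cyp11b1*-high and 710.0 CPM (688 to 733) in the *Wnt4*-high cluster. Immune-like cells held the next level outside the cortex, 199 CPM (176 to 225). *Lipe*, the hormone-sensitive lipase that frees cholesterol from esters, was at 44.5 CPM (41.8 to 47.4) in cortex-like and 7.74 CPM (5.99 to 9.82) in chromaffin-like cells, a ratio of 5.76 (4.49 to 7.49). Unlike *Soat1*, it was somewhat higher in the *Akr1c18*-high cluster, at 53.4 CPM against 43.9 and 28.7.

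Among uptake and transport genes, *Scarb1* (chr5:125277087-125341094), the receptor for high-density lipoprotein, shared the pattern of *Soat1*. It was at 224 CPM (215 to 233) in the *Akr1c18*-high, 605 CPM (585 to 625) in the *Cyp11b1*-high and 593 CPM (573 to 614) in the *Wnt4*-high cluster, and the intervals of the latter clusters overlapped. Chromaffin-like cells held 18.8 CPM (16.0 to 21.9), a cortex ratio of 22.3 (19.1 to 26.2). Endothelial-like cells held 233 CPM (219 to 249), so that there the ratio was 1.80 (1.68 to 1.92) and the *Akr1c18*-high and endothelial-like levels had overlapping intervals. *Soat1* and *Scarb1* passed the rule as lower in the *Akr1c18*-high cluster than in the other cortex-like cells, a share of the members near that of all genes (7.78%), with ratios of 0.415 (0.398 to 0.432) and 0.373 (0.356 to 0.392). Summed, the pair stood at 528 CPM (514 to 542), 1362 CPM (1332 to 1392) and 1303 CPM (1273 to 1334) in the 3 clusters.

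*Stard4*, a cytosolic sterol carrier, followed the enzymes, with 111 CPM (105 to 117) in the *Akr1c18*-high, 10.6 CPM in the *Cyp11b1*-high and 10.3 in the *Wnt4*-high cluster, a ratio of 10.6 (8.75 to 12.9) for the *Akr1c18*-high cluster to the other cortex-like cells. Endothelial-like cells held 48.9 CPM (42.4 to 56.1) and chromaffin-like cells 22.9 CPM (19.8 to 26.3). *Abca1*, which exports cholesterol to apolipoproteins, was at 382 CPM (370.4 to 394), 351 CPM (336 to 367) and 122 CPM (113 to 131) in the 3 clusters, so that the *Wnt4*-high cluster stood apart from the others, and at 119 CPM (101 to 139) in immune-like cells. *Npc2*, a lysosomal sterol carrier, was lower in the *Wnt4*-high and *Cyp11b1*-high clusters than in any group outside the cortex. Its levels were 1086 CPM (1030.4 to 1144) in immune-like, 297 CPM (285 to 308) in chromaffin-like, 255 CPM (240.2 to 271) in endothelial-like and 174 CPM (169 to 180.1) in cortex-like cells. *Npc1*, its membrane partner, ranged from 15.2 CPM in cycling endothelial-like to 52.2 in *Akr1c18*-high cells, with 74.4 CPM (43.3 to 119) from 17 UMIs in the *Scn7a*-high cluster.

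Between noradrenaline and adrenaline chromaffin-like cells 0 of the 24 members tested were higher (background 3.28%) and 0 lower (background 2.45%). The ratio was nonetheless above 1 beyond counting error for *Fdps*, with 56.1 CPM (44.1 to 70.5) in noradrenaline and 27.6 CPM (24.0 to 31.7) in adrenaline cells and a ratio of 2.03 (1.53 to 2.66), and for *Srebf2*, at 1.82 (1.34 to 2.43), *Cyp51*, at 1.54 (1.09 to 2.15), and *Fdft1*, at 1.44 (1.06 to 1.92). It was below 1 for *Npc2*, at 0.698 (0.615 to 0.790), *Pmvk*, at 0.739 (0.562 to 0.959), and *Abca1*, at 0.701 (0.498 to 0.964). How many of all genes had such intervals is not given here. The median log2 fold was -0.00055 over the members and 0.023 over all genes tested. Summed enzymes stood at 494 CPM (457 to 533) in noradrenaline and 405 CPM (391 to 420.1) in adrenaline cells, a ratio of 1.22 (1.12 to 1.33), and at 523 CPM (495 to 552) in transitioning-like cells.

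In the *Scn7a*-high cluster counts were small. By the fold rule 4 of 27 members were higher than in chromaffin-like cells (background 14.6%), namely *Srebf1*, *Hmgcs1*, *Fdps* and *Npc1*, and 1 was lower (background 15.6%), namely *Stard4*. *Srebf1* had a ratio of 5.34 (2.45 to 10.4), *Hmgcs1* 2.45 from 17 UMIs, *Fdps* 2.33 (1.34 to 3.79) and *Npc1* 2.53 (1.45 to 4.13). The ratio of *Stard4* was 0.191 (0.00482 to 1.08) from 1 UMI, and its interval includes 1. The share of members called higher, 14.8%, was close to that of all genes, while the share called lower, 3.70%, was below it. The gauge of cortex RNA stood at 1.67% in this cluster, against 0.455% in chromaffin-like cells. Of 9 steroidogenic genes tested, 5 were also higher in it (background 14.6%). The part of cortex RNA in the calls of the members was not tested.

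Cycling cells were compared with the non-cycling cells of their class. Against cortex-like cells as a whole, cycling cortex-like cells had 0 members higher (background 4.02%) and 2 lower (background 1.95%), *Soat1* at 0.480 (0.445 to 0.518) and *Scarb1* at 0.425 (0.388 to 0.465). Without cortex-like cells above 10% mitochondrial UMIs, 0 were lower. These cells were themselves high in *Akr1c18*, at 6731 CPM, and against the *Akr1c18*-high cluster 0 members were higher (background 5.3%) and 0 lower (background 0.0627%). Their summed enzymes stood at 2666 CPM (2606 to 2726), a ratio of 0.624 (0.609 to 0.640) to the *Akr1c18*-high cluster. In cycling chromaffin-like cells 3 members were higher (background 5.43%), *Hmgcs1*, *Fdps* and *Soat1*, and 0 lower (background 0.108%). Cortex genes stood higher in those cells too, as given above, at a share that would give 41.7 of their 103 CPM of *Fdps* and 40.5 of their 81.9 CPM of *Soat1*, and Scrublet called 13.6% of them. Without the cells it called, 1 member was higher, and the part of cortex RNA or doublets in the 3 calls was not tested. In cycling endothelial-like cells 0 were higher (background 3.66%) and 0 lower (background 0.0701%).

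Other genes of sterol and lipid handling were read as lists. Of 10 fatty acid and acetyl-CoA genes under SREBP control 9 were tested, and 5 were higher in cortex-like than in chromaffin-like cells (background 13.3%), among them *Acly*, ATP citrate lyase, at 733 against 78.0 CPM, and *Fads2*, a fatty acid desaturase, at 368 against 8.77. Within the cortex 2 of these 10, *Acss2* and *Acaca*, were higher in the *Akr1c18*-high cluster than in the other cortex-like cells (background 3.74%). Of 8 genes of the non-sterol isoprenoid branch 5 were tested, and 0 were higher in cortex-like than in chromaffin-like cells (background 13.3%). Of 14 genes of intracellular sterol transport and lipid droplets 12 were tested and 7 were higher (background 13.3%), among them *Gramd1b*, a carrier of sterol from the plasma membrane, at 419 against 41.4 CPM, and *Plin2*, a droplet coat protein, at 131 against 15.2, and 1, *Lima1*, was lower (background 15.6%). *Gramd1b* was at 578, 383 and 159 CPM in the *Akr1c18*-high, *Cyp11b1*-high and *Wnt4*-high clusters. Of 5 genes of sterol efflux and its receptors 3 were tested, and *Abca1*, also a member, was higher and *Abcg1* lower. Of 11 steroidogenic genes, all tested, 10 were higher (background 13.3%), but several of them served to name the cortex. Within the cortex 4 of the 11 were lower in the *Akr1c18*-high cluster, *Hsd3b1*, *Cyp21a1*, *Cyp11b1* and *Mc2r* (background 7.78%), and 1, *Mrap*, was higher (background 3.74%). Steroidogenic genes had not been kept out of the variable features that built the clusters, and *Cyp11b1* names 1 cluster. These counts within the cortex are therefore only descriptions.

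Some values rest on reads that neighbouring genes could share. In the annotation (GENCODE M21, GRCm38) the exons of *Fdps* overlap those of *Gm43738* and the exons of *Tm7sf2* those of *Vps51*, on the same strand, and *Acat2* has a close paralog, *Acat3*. Which reads were counted for each is not given in the sources used here.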

How the data were processed

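Per the labels and the study's methods, the authors made a 10x Genomics 3′ library and processed its reads with Cell Ranger 4.0.0 on mm10, as the submitters' processing notes give it. The deposited matrix holds UMI counts, whole numbers for each gene and barcode, not normalized. Cells with 500 to 5000 genes and at most 20% mitochondrial UMIs were kept, the limits the study's methods state. Clusters were rebuilt in Seurat 5.3.0 (R 4.3.3) from 2000 variable features, 10 principal components and Louvain resolution 0.4, with 76 cholesterol and lipid genes, the members included, kept out of the variable features. Clusters were named from marker lists, medullary clusters after a second round. Rebuilt names may differ from those of the study. Doublets called by Scrublet (scanpy 1.11.5, expected rate 8%) were counted but not removed.

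Raw UMIs were summed per group and divided by the group's total. With 1 library no test of conditions was possible. Intervals are exact (Poisson for levels, conditional binomial for ratios, Clopper-Pearson for shares) and cover counting error only. The fold rule, at least 2 after adding 10 CPM among genes at 10 CPM or more, was applied with fixed settings to all genes. A check on simulated counts did not cover folds near 2, levels near 10 CPM or the comparisons between cortex clusters. Genes named are the members, with related genes taken from fixed lists. The members and lists were chosen with earlier results of these data known. Promoter windows and gene positions come from RefSeq (GRCm38.p6) and GENCODE (GRCm38). Alternatives changed the resolution, the principal components, the cell filters, doublets, the variable features, the pseudocount, the weighting of cells and a subtraction of cortex RNA.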

Additional observations from a re-analysis of the deposited data

How the results depend on the processing

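No paired analysis was possible because the series as used here holds 1 library, which also leaves no replicate to leave out. Of the counts, medians and summed levels recomputed, 198 stayed within the limits set and 40 moved. The number of members higher in cortex-like than in chromaffin-like cells ranged from 14 to 20, the number higher in the *Akr1c18*-high cluster from 19 to 21, and *Soat1* and *Scarb1* were lower there under every alternative run. Of 240 recomputed ratios of single members between cortex-like and chromaffin-like cells, 239 kept their side of 1, the exception being *Srebf2* at 0.911 with a mean over cells. By the interval of the main ratio, 222 of them stayed inside and 18 moved out. At resolution 0.2 and under a stricter cell filter (1000 genes or more and no more than 10% mitochondrial UMIs) no *Cyp11b1*-high cluster separated, and the stricter filter left no *Scn7a*-high cluster, so neither gave a value. Cortex-like clusters of an alternative took the name of the main cluster that most of their cells lay in. At resolution 0.2 the cluster so named *Wnt4*-high held 1479 cells and the *Akr1c18*-high 1933, against 820 and 1681 in the main run. Values under these names at resolution 0.2 are therefore not those of the same cells.

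The causes of the moves given here were not tested. With a pseudocount of 1 CPM, 8 members were higher in the *Scn7a*-high cluster, 6 in cycling chromaffin-like and 1 in cycling endothelial-like cells, the last also 1 with a mean over cells. In cycling chromaffin-like cells 0 were higher at resolution 0.8, 0 under the stricter filter and 1 without Scrublet doublets. At resolution 0.8, 1 member was higher in the *Cyp11b1*-high cluster. In the *Wnt4*-high cluster 2 were higher at resolution 0.2, where it held 1479 cells. There were 2 under the stricter filter and 1 without cortex-like cells above 10% mitochondrial UMIs. In cycling cortex-like cells 0 were lower with 30 principal components, 0 with the members among the variable features, 0 under the stricter filter and 0 without cortex-like cells above 10% mitochondrial UMIs.

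Summed enzymes kept the order of the cortex clusters wherever these separated. In the *Akr1c18*-high cluster they moved to 3897 CPM (resolution 0.2), 4136 (30 components), 3840 (stricter filter), 4109 (mean over cells) and 4198 (without endothelial-marker cells). In the *Cyp11b1*-high cluster they moved to 753.3 CPM (30 components), 790.5 (members kept), 750.1 (without doublets) and 786 (mean over cells). In the *Wnt4*-high cluster they moved to 520.9 CPM (resolution 0.2, 1479 cells), 406.5 (resolution 0.8), 468.8 (30 components), 426.6 (members kept), 514.2 (stricter filter) and 425.8 (mean over cells). Pooled cortex-like cells moved to 2639 CPM (resolution 0.8), 2488 (30 components), 2429 (members kept), 2904 (stricter filter), 2407 (without doublets), 2337 (mean over cells) and 2604 (without endothelial-marker cells). Subtracting cortex RNA gave 248.8 CPM in endothelial-like and 245.4 in immune-like cells, and the stricter filter gave 846.6 in the 302 immune-like cells it kept, against 279 reported. The alternatives without endothelial-marker cells, without cells above 10% mitochondrial UMIs and without cycling-marker cells were chosen after seeing the data.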
